A study of Homo sapiens with 3 samples.

Results

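The genes described here are 10 feedback inhibitors and transcriptional targets of FGF-ERK signalling, chosen by symbol: the phosphatases DUSP4, DUSP5 and DUSP6, the Sprouty genes SPRY1, SPRY2 and SPRY4, the Sprouty-related genes SPRED1 and SPRED2, and the ETS transcription factors ETV4 and ETV5. They are 10 of 16225 genes named on the array and are read by 14 of its 18468 named probes. The samples are 3 human embryonic stem (ES) cell lines described as undifferentiated, H9, BG03 and ES01, each on 1 Illumina whole-genome array, with total RNA extracted with TRIzol and labelled with Cy3. The lines form 1 group and share 1 culture protocol: irradiated MEFs (mouse embryonic fibroblast feeders), DMEM/F12 medium, and the supplements KSR, BME, NEAA, L-glutamine and FGF2. No culture without FGF2 and no culture with the pathway blocked was part of the group, so the values are levels under stimulation with no unstimulated background. The design also names mouse ES cells and EpiSCs as the comparison, and these are not analysed here.

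FGF receptors activate RAS, which passes the signal through the kinases RAF and MEK to ERK. ERK in turn raises the transcription of genes that damp the same pathway: DUSP proteins remove phosphate from ERK, and Sprouty and SPRED proteins hold back RAS and RAF. PEA3-type ETS factors such as ETV4 and ETV5 are transcribed in response to FGF and carry the signal to further genes. Human ES cells are kept undifferentiated with FGF2, and transcripts of this kind are widely read as a sign of pathway output. The question put to the data was whether these genes move together over the lines.

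Since ETS factors are among the genes and ETS sites are common in promoters, 4 of their promoters are shown, each as the 250 bases before the annotated transcription start. RefSeq windows (GRCh38.p14) were found for 6 of the 10 genes, in 10 windows, since some genes have several starts. DUSP6 is shown because it differed most between the lines, SPRY2 and SPRY4 because they shared its order over the lines, and SPRY1 because it did not. SPRY2 and SPRY1 have several windows, and for each the window that holds the marked sequence is shown. Capitals mark the ETS-type sequence CCGGAA or its reverse complement TTCCGG.
DUSP6 (chr12:89352502-89352751, - strand): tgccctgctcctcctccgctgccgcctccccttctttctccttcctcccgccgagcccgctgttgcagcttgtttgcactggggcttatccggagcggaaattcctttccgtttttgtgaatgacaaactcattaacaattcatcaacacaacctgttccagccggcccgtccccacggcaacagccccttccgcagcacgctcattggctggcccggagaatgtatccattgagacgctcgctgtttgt
SPRY2 (chr13:80341127-80341376, - strand): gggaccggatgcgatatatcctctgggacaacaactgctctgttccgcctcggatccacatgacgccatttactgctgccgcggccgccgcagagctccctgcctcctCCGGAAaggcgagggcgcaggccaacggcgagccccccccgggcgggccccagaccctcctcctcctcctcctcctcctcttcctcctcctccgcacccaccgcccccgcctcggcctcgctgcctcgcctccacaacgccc
SPRY4 (chr5:142324248-142324497, - strand): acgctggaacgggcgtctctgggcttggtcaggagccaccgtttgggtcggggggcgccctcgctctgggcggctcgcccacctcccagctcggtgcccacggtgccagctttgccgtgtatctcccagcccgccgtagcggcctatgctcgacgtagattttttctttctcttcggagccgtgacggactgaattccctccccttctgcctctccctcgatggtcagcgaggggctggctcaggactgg
SPRY1 (chr4:123398136-123398385, + strand): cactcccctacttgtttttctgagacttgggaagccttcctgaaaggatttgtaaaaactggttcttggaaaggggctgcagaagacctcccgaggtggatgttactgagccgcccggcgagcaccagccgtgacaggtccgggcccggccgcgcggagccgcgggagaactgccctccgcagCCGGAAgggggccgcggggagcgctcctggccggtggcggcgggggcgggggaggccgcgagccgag

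The sequence CCGGAA or its reverse complement was found in 2 of the 10 windows, 1 of SPRY2 and 1 of SPRY1, and in 14.5% of all 35116 RefSeq windows of this length. The cyclic AMP response element TGACGTCA and the AP-1 site TGAGTCA (reverse complement TGACTCA) were in none of the 10, against 1.65% and 4.20% of all windows. CCGGAA was thus present before genes of both orders described below. It was absent from the windows of DUSP6, SPRY4, SPRED1 and SPRED2, and from the other windows of SPRY2 and SPRY1. Shorter or other forms of ETS site were not searched for. These are matches of letters in short windows and do not show whether a factor binds.

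Bead numbers per array ran from 2089034 to 2102778, and the median bead type had 42 beads. Intensities are given in the order H9, BG03, ES01 after quantile normalization, and a gene counted as above background where it exceeded the 95th percentile of 215 olfactory receptor probes on the same array (11.2, 12.6 and 13.3 units). Of the ES cell markers, 9 of 10 measured were above background in all 3 lines, with POU5F1 at 269.6, 287 and 195 and NANOG at 130.1, 123 and 127; the SOX2 probe was above it in none. With 1 array per line a difference between lines has no replicate check and no test. Each is therefore set beside the same difference over all genes and beside the bead error, which is the standard error typical of bead types at the same rank of brightness on that array. Bead error covers the spread of beads within an array and not that of cultures or hybridizations. Each SD is that of the log2 values of the 3 lines (n = 3).

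All 10 genes were above background in all 3 lines, as were 59.8% of the 16225 genes measured. They did not share 1 order over the lines, and after quantile normalization they took 2. In 7 genes (DUSP5, DUSP6, SPRY2, SPRY4, SPRED1, SPRED2 and ETV4) H9 was lowest, BG03 intermediate and ES01 highest, an order found in 20.0% of the 9695 genes above background in all lines. In the other 3 (DUSP4, SPRY1 and ETV5) BG03 was lowest and H9 highest, an order found in 12.3% of genes. In RNA from whole cultures, fewer expressing cells and less RNA per cell cannot be told apart. Each of the phosphatase, Sprouty and ETS families thus held genes of both orders, and the 2 SPRED genes shared the first. Not every step in these orders was larger than bead error: H9 and BG03 were within 2 bead standard errors of each other for DUSP6, SPRY2, SPRY4 and ETV4, BG03 and ES01 for SPRY1 and SPRED2, and H9 and ES01 for DUSP4. ES01 was highest for 7 of the 10 genes, and for 34.5% of the 9695. The orders depend on how the arrays are scaled. When every array was instead scaled to 1 median over all probes, 5 of the 10 genes took other orders: DUSP5, SPRY4, SPRED1 and SPRED2 were highest in BG03 and lowest in H9, and SPRY1 was lowest in ES01. DUSP6, SPRY2 and ETV4 then had the order H9, BG03, ES01, and DUSP4 and ETV5 the order BG03, ES01, H9. With values as deposited SPRY1 took another order, and with 1 median over the genes above background SPRY4 did.

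**Figure D1:**
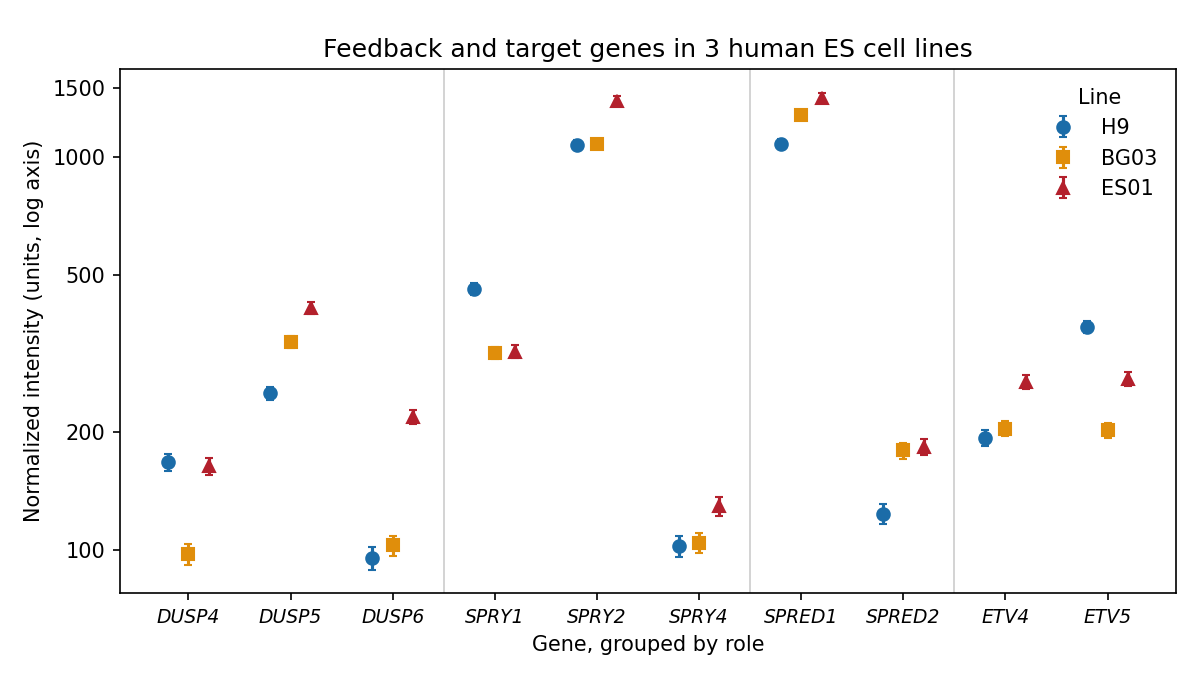
Normalized intensity of each of the 10 genes (log axis, units) in H9 (circles), BG03 (squares) and ES01 (triangles), 1 array per line, with bars of 1 bead standard error; genes are grouped as phosphatases, Sprouty, SPRED and ETS genes. ES01 lies highest for 7 genes (3 with 1 median over all probes) and H9 highest for DUSP4, SPRY1 and ETV5; heights are to be compared within a gene only, since each is read by its own probe.

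Among the phosphatases, DUSP6, the cytoplasmic phosphatase specific for ERK, measured 95.4, 103 and 218 (log2 SD 0.66). H9 and BG03 lay close together and ES01 stood apart from both. ES01 was 2.28-fold above H9 (log2 difference 1.19, bead error 0.11) and 2.12-fold above BG03 (1.08, bead error 0.10), while BG03 and H9 differed by 0.11 (bead error 0.13). In ES01 against H9, 3.32% of genes were as far apart in either direction, and 2.92% against BG03. Among the 500 genes nearest to DUSP6 in mean level, 3.60% and 2.80% differed at least 2-fold in the same comparisons.

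DUSP5, a nuclear phosphatase of ERK, measured 250.2, 339 and 414 (log2 SD 0.36). BG03 was above H9 by 0.44 and ES01 above BG03 by 0.29, with bead errors of 0.08 and 0.07, so that all 3 lines were apart by more than bead error. DUSP4, a nuclear phosphatase that acts on ERK and other MAP kinases, measured 167, 97.5 and 163 (log2 SD 0.44). Here BG03 stood apart, 1.72-fold below H9 (log2 difference -0.78, bead error 0.11), and H9 and ES01 differed by 0.04 with a bead error of 0.10. ES01 was 1.67-fold above BG03 for DUSP4. All 3 phosphatases were thus higher in ES01 than in BG03 (DUSP5 not so, at -0.06, with 1 median over all probes), and they differed in where H9 lay.

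Sprouty proteins bind signalling adaptors and restrain RAS activation downstream of the receptor. SPRY2 measured 1074, 1080 and 1389 (log2 SD 0.21) and SPRY4 measured 102, 104 and 129.5 (log2 SD 0.19). H9 and BG03 differed by 0.01 for SPRY2 and 0.03 for SPRY4, less than their bead errors of 0.06 and 0.12, and ES01 was above H9 by 1.29-fold and 1.27-fold. With 1 median over all probes ES01 was above H9 by 0.12 for SPRY2 and 0.01 for SPRY4 on the log2 scale, and ES01 minus BG03 was 0.03 and -0.03. These are small differences: 32.3% of genes were as far apart as SPRY2 between ES01 and H9, and 35.3% as far as SPRY4. The SPRY4 difference (0.34) was 2.9 bead standard errors and that of SPRY2 (0.37) was 6.5. SPRY1 measured 461, 317 and 320 (log2 SD 0.31). It was the reverse of the other Sprouty genes in H9, which lay 1.45-fold above BG03 and 1.44-fold above ES01, and BG03 and ES01 differed by 0.01 (bead error 0.07). ES01 minus BG03 for SPRY1 was -0.01 with values as deposited and -0.34 with 1 median over all probes, which also moved ES01 minus H9 from -0.53 to -0.80.

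SPRED proteins act with neurofibromin, a RAS inhibitor, at the membrane. SPRED1 measured 1080, 1274 and 1414 (log2 SD 0.20) and SPRED2 measured 124, 179 and 183 (log2 SD 0.32). Both were lowest in H9, with ES01 above it by 0.39 for SPRED1 and 0.56 for SPRED2 on the log2 scale. For SPRED2 most of it lay between H9 and BG03 (0.53), and BG03 and ES01 differed by 0.03 with a bead error of 0.09. For SPRED1 it was 0.24 between H9 and BG03 and 0.15 between BG03 and ES01. With 1 median over all probes ES01 minus BG03 turned to -0.19 for SPRED1 and -0.32 for SPRED2, and ES01 minus H9 fell to 0.14 and 0.24; H9 stayed lowest for both.

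The ETS factors differed from each other in H9. ETV4 measured 193, 204 and 268 (log2 SD 0.25), with ES01 1.39-fold above H9. ETV5 measured 369, 201.5 and 272 (log2 SD 0.44), with H9 1.35-fold above ES01 and 1.83-fold above BG03. Between BG03 and H9 the ETV5 difference of -0.87 was 10.9 bead standard errors, and 4.71% of genes were as far apart; the ETV4 difference was 0.08. ES01 was above BG03 for both, by 0.39 for ETV4 and 0.43 for ETV5, with bead errors of 0.09 and 0.08. With 1 median over all probes these were 0.06 and 0.10, and ES01 minus H9 was 0.18 for ETV4 (0.47 after quantile normalization) and -0.72 for ETV5.

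**Figure D2:**
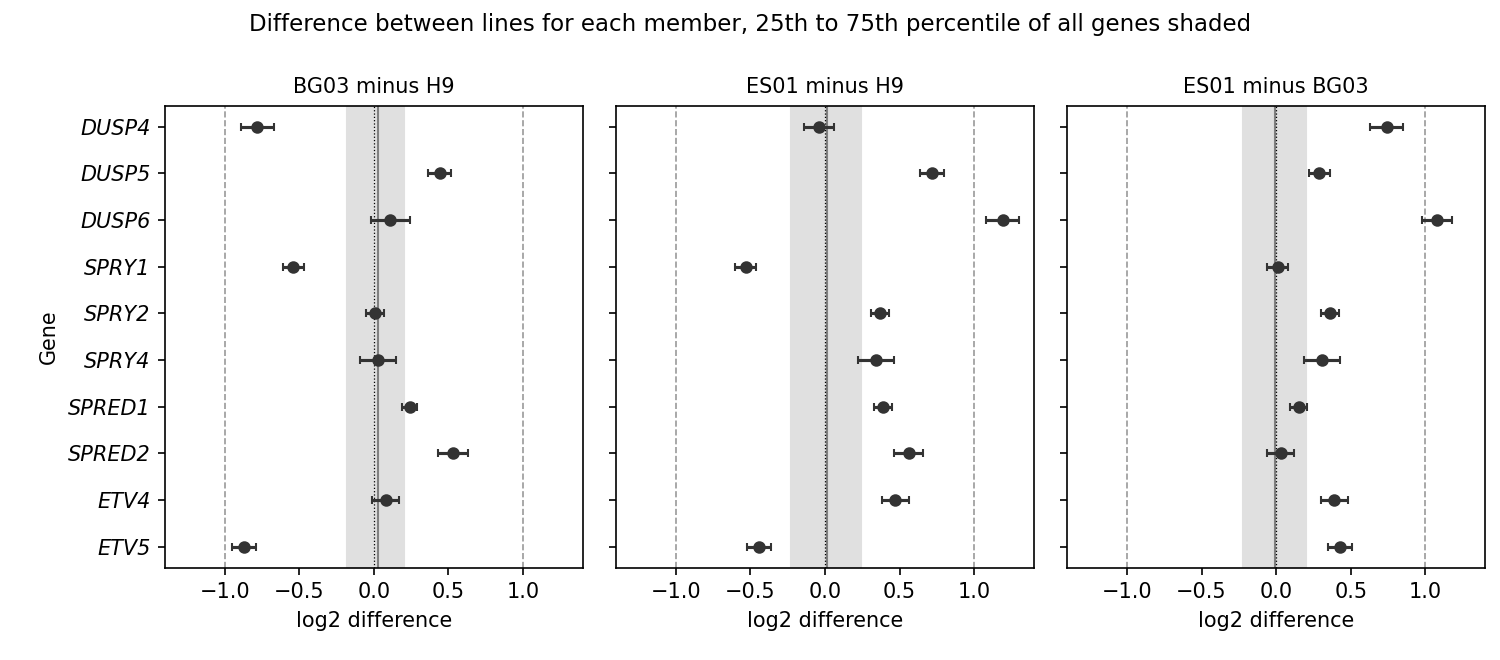
Log2 difference between each pair of lines for the 10 genes (points, bars of 1 bead standard error of the difference); the shaded band runs from the 25th to the 75th percentile of the 11004 genes above background in some line, the grey line is their median and dashed lines mark 2-fold. In the ES01 minus BG03 panel all 10 points lie right of 0 (9 with values as deposited, 5 with 1 median over all probes), while the panels against H9 have points on both sides.

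By pair of lines, after quantile normalization the genes shared a direction between BG03 and ES01 and not in either pair with H9. ES01 was above BG03 for 10 of 10 (9 with values as deposited, SPRY1 being the other, and 5 with 1 median over all probes), with a median log2 difference of 0.34 and a range from 0.01 to 1.08. Of the 10 differences, 8 were over 2 bead standard errors. Bead error was taken for the 10 genes only, so no share of all genes stands beside that count. The median absolute difference over all genes was 0.21 in this pair. Of the 11004 genes that passed background in some line, 49.1% were higher in ES01 than in BG03, with a median of -0.01. Against H9, ES01 was higher for 7 of 10, with a median of 0.38 and a range from -0.53 to 1.19 (all genes: 51.8% higher, median 0.01). With 1 median over all probes ES01 was again higher for 7, with a median of 0.13 (all genes: 20.9% higher, median -0.27). Between BG03 and H9 the genes split, with 7 higher and 3 lower in BG03, a median of 0.05 and a range from -0.87 to 0.53 (all genes: 53.7% higher, median 0.03). Both comparisons with ES01 use the same ES01 array and are not independent. The median log2 SD over the lines was 0.31 for the 10 genes and 0.19 for all 11004.

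Few of the differences were large. DUSP6 alone was at least 2-fold higher in ES01 than in H9 (1 of 10, against 2.90% of all genes) and than in BG03 (1 of 10, against 2.27%). Between BG03 and H9, 0 of 10 were 2-fold apart in either direction, against 3.24% of genes. At a threshold of 1.5-fold, DUSP5 joined DUSP6 in ES01 against H9 (8.37% of genes higher), DUSP4 joined it in ES01 against BG03 (7.38% higher), and DUSP4 and ETV5 were lower in BG03 than in H9 (6.05% lower). With 1 median over all probes DUSP6 was no longer 2-fold apart from either line, at 0.86 from H9 and 0.74 from BG03, and DUSP5 from H9 (0.44) and DUSP4 from BG03 (0.40) were under 1.5-fold.

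The comparison with ES01 depends on how the arrays are scaled. Scaling to 1 median over all probes moved the all-gene median to -0.27 between ES01 and H9 and to -0.34 between ES01 and BG03. On that scale 5 of 10 genes were higher in ES01 than in BG03 (DUSP4, DUSP6, SPRY2, ETV4 and ETV5, against 16.9% of all genes), and 3 were highest in ES01. Set against the all-gene median, 10 of 10 were above it between ES01 and BG03 and 7 between ES01 and H9, on both scales. SPRY1 was above the first by very little. This count was added after the data had been seen. Scaling by 1 factor per array moves genes above background alike, so it is no separate check. With 1 median over the genes above background in all lines, 10 of 10 genes were higher in ES01 than in BG03, against 50.5% of all genes. Their median difference was then 0.35, with SPRY1 at 0.00 after rounding, and 7 were highest in ES01.

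**Figure D3:**
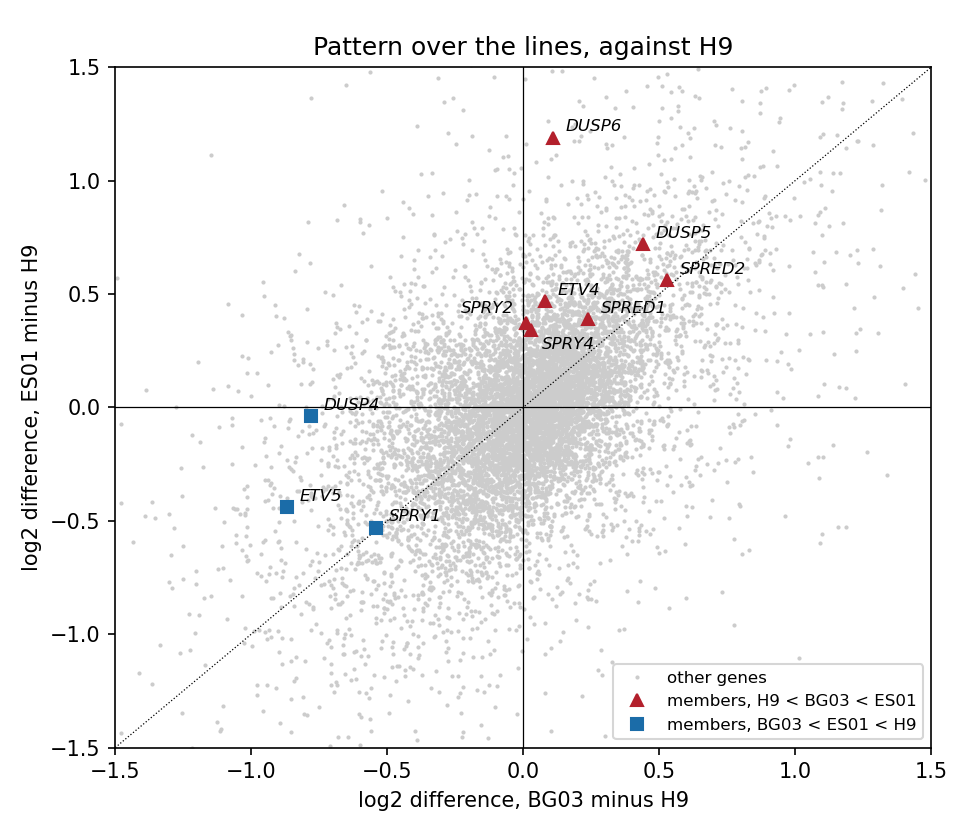
For each gene, the log2 difference of BG03 from H9 (x axis) against that of ES01 from H9 (y axis); triangles are the 7 genes in the order H9, BG03, ES01, squares the 3 in the order BG03, ES01, H9, and grey points the 9695 genes above background in all lines (135 lie outside the axes). Points above the dotted diagonal are higher in ES01 than in BG03, as all 10 genes are on this scale (5 with 1 median over all probes), SPRY1 by 0.01; both axes share the H9 array, which by itself spreads points along the diagonal.

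DUSP4, DUSP6 and SPRY1 have further probes, marked in their identifiers as specific to 1 isoform. The SPRY1 probe used here carries that mark too, so all SPRY1 values above are of 1 isoform, by that mark. The 2 further DUSP4 probes and the further SPRY1 probe were above background in no line. The further DUSP6 probe measured 9.47, 7.00 and 14.3 and passed the threshold in ES01 alone, just above its 13.3 units. Each gene's values therefore rest on 1 probe, and no second probe above background in all lines was there to check them.

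The other genes of the pathway were taken from 6 lists of 102 genes, of which 89 were measured, 75 were above background in some line and 68 in all lines. Of the 68, 19 (27.9%) had the order H9, BG03, ES01 and 9 (13.2%) the order BG03, ES01, H9. Their median log2 difference between ES01 and BG03 was 0.01, with 38 of 75 higher in ES01. These differences too are lower with 1 median over all probes, where each of the 6 lists had a negative median between ES01 and BG03 (-0.11 to -0.64) and the counts higher in ES01 fell (for example from 9 to 5 of 12 ligands and receptors). Of all genes, 16.9% were higher in ES01 than in BG03 on that scale, with a median of -0.34. A gene above background in H9 alone has, between ES01 and BG03, only the difference of their thresholds (0.08 after quantile normalization). It counts as higher in ES01, here and among all genes.

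Upstream, 11 of 17 measured FGF ligands and receptors were above background in all lines, and their median difference between ES01 and BG03 was 0.24, with 9 of 12 higher in ES01. FGF2, the ligand also supplied in the medium, measured 90.1, 93.2 and 122 (log2 SD 0.24), in the order of the 7 genes, whereas FGF1 was above background in BG03 alone and FGF4 in none. FGF8, a ligand active at gastrulation, was the 1 gene of this list that differed at least 2-fold, with 209, 167 and 338.5 (ES01 above BG03 by 1.02, and by 0.67 with 1 median over all probes). The adaptors had a median of -0.31, with 2 of 8 higher in ES01. GRB2, which links receptors to RAS activation, measured 609, 707 and 687, FRS3 63.1, 66.6 and 53.2 and GAB1 27.9, 33.1 and 26.6. RAS genes and their regulators had 5 of 8 higher in ES01 than in BG03 (median 0.13), among them HRAS at 324, 411 and 523 and RRAS at 66.4, 46.3 and 58.2, while MRAS, at 142, 192 and 126, was lower. The 5 include RASGRP1, which was under background in both lines, so that its difference is that of the thresholds.

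The kinases from RAF to ERK and its effectors had a median of -0.04, with 4 of 12 higher in ES01. MAP2K1, which encodes the ERK kinase MEK1, measured 944, 935 and 939 (log2 SD 0.01), MAP2K2 4568, 4890 and 4309, and ARAF 70.8, 81.05 and 77.9. MAPK3, which encodes ERK1 and was picked after its values had been seen, was highest in H9 at 858, 575 and 536 (log2 SD 0.37). After quantile normalization no gene of the adaptor, RAS or kinase lists differed at least 2-fold between any 2 lines. With 1 median over all probes RASGRP1, also picked after its values had been seen, was lower in ES01 than in H9 by 1.02 on the log2 scale; it measured 21.9, 10.3 and 8.87 and passed background in H9 alone, so its differences are limited by the background threshold.

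Other feedback genes had a median of 0.01, with 7 of 13 higher in ES01 than in BG03, and 0 of them differed 2-fold. The 7 include DUSP10, which was under background in both lines and was picked after its values had been seen. DUSP1, a phosphatase induced by stress as well as by growth factors, measured 228, 217 and 215 (log2 SD 0.05), DUSP2 measured 36.5, 47.2 and 33.4, and SPRY3 was above background in H9 and BG03. IL17RD (Sef), a membrane inhibitor of FGF signalling, measured 155, 186 and 238 and shared the order of the 7 genes; it was picked after its values had been seen.

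Other ERK targets lay on both sides. Their median between ES01 and BG03 was -0.01, with 11 of 22 higher in ES01 than in BG03. The 3 that were at least 2-fold lower in ES01 than in BG03 were IER3 (416.5, 509 and 184), JUN (113, 201 and 73.0) and FOSB (234, 276 and 119), all immediate early genes, which are transcribed within minutes of a stimulus. The share of all genes at least 2-fold lower in this pair is not given here. In either direction 2.92% of all genes were at least as far apart as DUSP6 (1.08, a stricter cutoff than 2-fold), and 2.27% were at least 2-fold higher in ES01. IER3, JUN and FOSB were all lowest in ES01, also with 1 median over all probes. EGR1, another immediate early gene, measured 1601, 1422 and 816 (ES01 minus BG03 -0.80, and -1.14 with 1 median over all probes), and FOS 885, 751 and 787. ELK4, an ETS factor of the serum response, was at least 2-fold higher in ES01 than in H9 (22.9, 40.1 and 58.5), ELK1 was at 503, 527 and 545, ELK3 was above background in no line, and ETV1, the third PEA3-type factor, was highest in H9 (74.4, 50.8 and 47.5). PHLDA1 (76.6, 98.25 and 141) and the ephrin receptor gene EPHA2 (328, 406 and 571) followed the order of the 7 genes. EGR1, FOS, PHLDA1 and EPHA2 were also picked after their values had been seen.

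**Figure D4:**
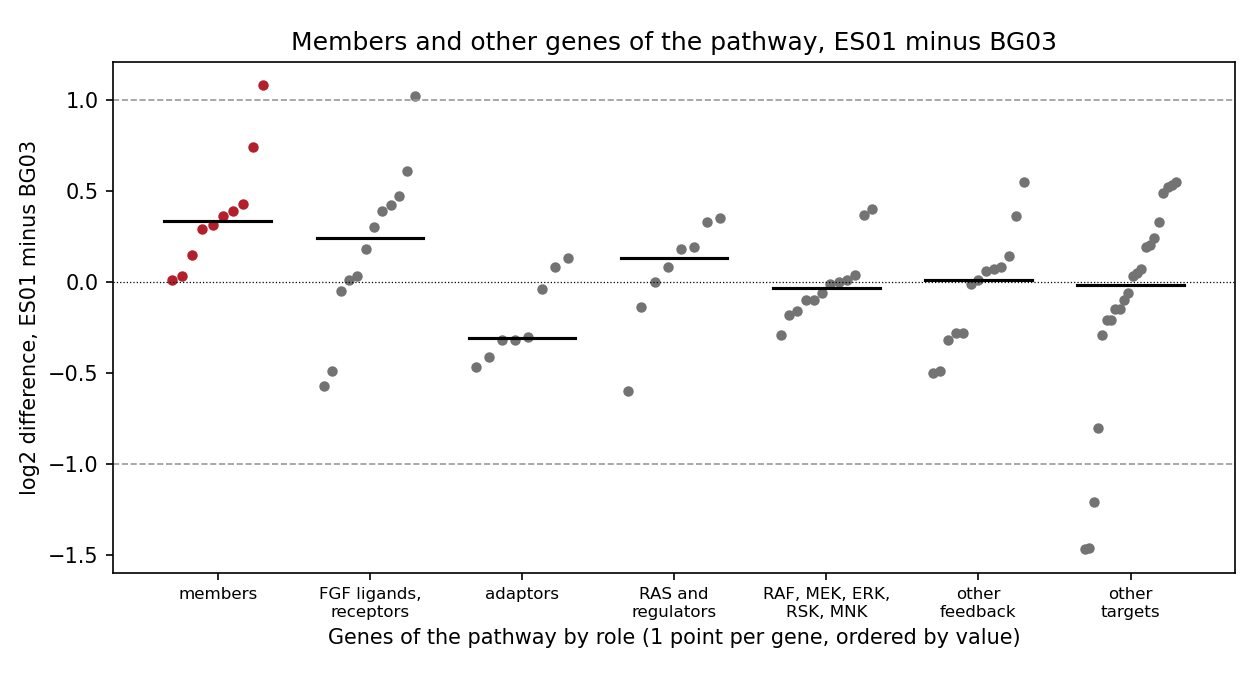
Log2 difference of ES01 from BG03 for the 10 genes (first column) and the other listed genes of the pathway by role, 1 point per gene above background in at least 1 line, with medians as bars and 2-fold as dashed lines. The 10 genes lie between 0.01 and 1.08 with a median of 0.34 (median 0.00 with 1 median over all probes); the lowest points of the last column are IER3, JUN and FOSB.

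Markers of other cells also differed between the lines. Of 18 fibroblast markers, 15 were above background in some line and 9 in all, and COL3A1, COL6A3 and POSTN in none. The summed intensity of the list was 5707, 4734 and 5565. VIM and FN1, given below, were its brightest genes in each line and made up much of that sum. Of the 9 above background in all lines, 3 were highest in ES01. Of the 15, 7 were higher in ES01 than in H9 (median -0.02) and 9 higher than in BG03 (median 0.12). The 7 include LUM and the 9 include FAP, each under background in both lines compared, so that its difference is that of the thresholds. With 1 median over all probes, 4 were higher in ES01 than in H9 (median -0.30) and 7 higher than in BG03 (median -0.15). Of all genes, 20.9% and 16.9% were higher on that scale (medians -0.27 and -0.34), and 51.8% and 49.1% after quantile normalization. COL1A1 measured 18.6, 22.0 and 43.2 and COL1A2 310.3, 229 and 582. TWIST1 (9.67, 24.5 and 45.4) was also highest in ES01 and was under background in H9. LOX measured 22.4, 9.17 and 28.0, DCN was above background in H9 and ES01 (30.5 and 26.4), and LUM in BG03 alone (48.9). VIM (2346, 1476 and 2104) and FN1 (1332, 959 and 1044) were highest in H9, and COL5A1 (114, 136 and 113), COL5A2 (638, 836 and 625), THY1 (752, 851 and 824) and S100A4 (50.8, 68.9 and 45.1) in BG03. COL6A3, POSTN, PDGFRB, FAP, VIM, FN1, COL5A1, COL5A2, THY1 and S100A4 were picked after their values had been seen.

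Ectoderm markers were above background in all lines for 2 of 9 and in some line for 5. Their summed intensity was 1448, 1426 and 1694, of which TUBB3 alone gave 1348, 1269 and 1575. PAX6 measured 3.80, 14.8 and 24.2 and DCX 34.4, 76.3 and 55.4, ZIC1 was above background in H9 and ES01 (22.7 and 25.4), and OLIG2 in H9 and BG03 (38.8 and 52.8). Mesendoderm markers were above background in all lines for 11 of 14 (1693, 1607 and 1868). AFP was lowest in H9 (148, 322 and 383), TTR highest there (81.5, 12.8 and 21.0), MIXL1 measured 15.7, 17 and 19.6, and HAND1, which is also on the trophoblast list, was highest in BG03 (17.7, 34.7 and 15.7). Trophoblast markers were above background in all lines for 3 of 9. Their sum was 320, 350 and 338, of which TFAP2C alone gave 225.7, 253.4 and 252.6. TUBB3 and TFAP2C were picked after their values had been seen. SOX1, NEUROG2, TBXT, MESP1, CDX2, CGA and CGB3 were above background in none. POU5F1 was lowest in ES01 and ZFP42 (364, 780 and 247) highest in BG03. The part of such cells, or of feeder RNA, in the levels of the 10 genes was not tested.

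Genes with like profiles were sought by the distance between log2 profiles centred on their mean over the 3 lines. The mean profile of the 10 genes (-0.08, -0.15 and 0.23) averages genes of different orders. Its own order, BG03, H9, ES01, was that of 0 of the 10 after quantile normalization. Nearest to this mean were ARMH3 (109, 104 and 134), COMMD3, DIP2B, FGD6 and CEBPZ, at distances from 0.008 to 0.016. These named genes have the order of the mean and not that of any of the 10. In all, 1341 genes lay within 0.2. The mean profile is small in size, so that distance also takes in genes that differ little between the lines. DUSP6 has a larger profile (log2 SD 0.66, against a median of 0.19 for all genes), so its count cannot be set against the 1341. Within 0.2 of DUSP6 lay 38 genes, the nearest being P2RY11 (51.5, 58.3 and 121), DPEP3, FSIP2, SLC39A8 and GPR183. No other gene of the 10 was among them; the nearest, DUSP5, lay at 0.565, with 544 genes nearer to DUSP6.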

How the data were processed

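The deposited value table holds 1 background-subtracted intensity per probe and array on a linear scale (33.8%, 32.8% and 26.3% of values below 0 in H9, BG03 and ES01); how the authors scaled it, and with what software, is not given in the sources used here. The deposited bead files hold 1 green intensity per bead, per the file headers, under codes with no link to genes here. Probes were named through the platform annotation and gene IDs (18451 of 18468 matched RefSeq names, assembly GRCh38.p14). All probes but 4 bacterial controls went through quantile normalization (limma 3.58.1, R 4.3.3), a step tested on simulated data. The brightest probe stood for a gene, and values were raised to the array's background threshold before log2. Bead error is the median standard error of bead types within 100 ranks, leaving out beads over 3 median absolute deviations (0.534% to 0.583%). Python 3.11.15 (pandas 2.3.3, numpy 2.4.6, matplotlib 3.10.9) did the rest. Genes named outside the 10 were the first 3 measured of each list, those 2-fold apart between lines and the 5 nearest profiles; exceptions are marked. The 10 genes and the lists were chosen with earlier results of these data known. The design text counts the 3 human samples as biological replicates; each line has 1 array.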

Additional observations from a re-analysis of the deposited data

How the results depend on the processing

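Of 30 differences between lines (10 genes, 3 pairs), 24 kept their sign under every alternative run: as-deposited values, 2 median scalings, the 99th percentile or a second background set of 87 probes, 2 floors, the mean over probes, no filter, and leaving out each line. The background, floor and filter runs could not move these differences, since all 10 genes exceeded those limits on every array. They are therefore no check of the signs. The 6 that changed sign were SPRY4 between BG03 and H9, and DUSP5, SPRY1, SPRY4, SPRED1 and SPRED2 between ES01 and BG03. Scaling to the same median over all probes gave 0 genes 2-fold apart between ES01 and either other line, a median difference of 0.00 between ES01 and BG03 (0.13 between ES01 and H9), 5 genes higher in ES01 than in BG03, 3 highest in ES01 and 3 in the order H9, BG03, ES01; that scaling rests on medians of 3.5, 3.5 and 4.4 units, under the background thresholds. A 1.5-fold threshold gave 2 genes in each pair of lines. Leaving out H9, BG03 or ES01 and normalizing again left 10 of 10 genes above background and medians of 0.34, 0.38 and 0.05 for the remaining pair. The orders over the lines, and the counts of genes higher in ES01, were chosen after seeing the data. No paired analysis was possible because the lines form 1 group. Signal over background limits the further probes of DUSP4, DUSP6 and SPRY1, and 1 array per line limits every difference.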
